A study of Mus musculus with 14 samples.

Results

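The MYC network is a group of DNA-binding proteins that pair with MAX, or with its relative MLX, and bind the same DNA motif, the E-box. MYC and MYCN, paired with MAX, activate genes of growth, ribosome synthesis and metabolism. The MXD proteins, MXI1, MNT and MGA compete with them for MAX and recruit corepressors, so that the balance between both sides is known to change as progenitor cells stop dividing and mature. MYC is also known as a driver of acute leukemias that carry a fusion of the gene MLL.

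Transcript levels of 10 network genes, taken by name from a table of 52550 mouse genes, were examined in all 14 samples of the study: the activators Myc and Mycn, the partner Max, the repressors Mxd1, Mxd3, Mxd4, Mxi1 and Mnt, the repressor Mga, and Mlx. All 10 were in the table. The genes were not chosen by a measured value of these samples, but earlier results of the same data were known when the list was made.

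The samples came from bone marrow of C57BL/6 mice aged 8 to 20 weeks. Hematopoietic stem and progenitor cells (HSPCs) were enriched with a commercial antibody kit from 4 WT samples (WT HSPC replicates 1 to 4) and from 4 samples of mice lacking Mir139, the gene of a microRNA (Mir139KO HSPC replicates 1 to 4). The other 6 samples were cultures of WT HSPCs that had been expanded overnight in a cytokine mix (SCF, GM-CSF, IL-6 and IL-3) and transduced with a retrovirus carrying the fusion gene MLL-AF9. Replicates 1 to 3 carried pMSCV-MLL-AF9-neo and were selected on neomycin, replicates 4 to 6 carried pMSCV-MLL-AF9-puro and were selected on puromycin, and all were replated in MethoCult medium before lysis. The viral promoter of the vector drives the fusion gene in any transduced cell. No cultured HSPCs without MLL-AF9 were among the samples, so the fusion gene, the selection and the culture cannot be told apart. The labels do not state whether samples of a group came from separate mice or transductions, and the p-values then measure only the spread between these samples.

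Total counts were 35016668 to 45877994 per sample. The noncoding RNA gene Gm26917 took 16.99 to 21.9% of the counts in 4 HSPC samples (WT replicates 1 and 2, Mir139KO replicates 2 and 3; low-share below), 32.7 to 35.4% in the other 4 HSPC samples (high-share) and 7.55 to 10.4% in the MLL-AF9 cultures. MLL-AF9 replicates 4 and 6 resembled each other most of all pairs (Pearson r of log2 levels across genes, 0.9946). The targeted gene Mir139 was listed at 0 counts in all 14 samples, so that this library type, which does not capture mature microRNAs, does not check the genotype labels. HSPC-enriched marrow held transcripts of other cells: 8 neutrophil markers summed to 370.5 to 9423 normalized CPM in WT (counts scaled to a common library size with TMM factors), 4358 to 12570 in Mir139KO and 270.1 to 4035 in MLL-AF9 samples, and 8 erythroid markers to 1121 to 1664 in HSPCs against 56.4 to 208 in MLL-AF9 cultures. Most of the erythroid sum in cultures was Tfrc (2629 to 10444 counts), which is also among the metabolism and growth genes below. No other erythroid marker had more than 89 counts in a culture (Klf1), and Car1 had 0 in all of them. Mast cell and basophil markers summed to 709.7 to 1806 in HSPCs and 5.28 to 22.1 in cultures. Sums were 90.5 to 489.6 and 3.77 to 17.4 for megakaryocytes, and 130.3 to 269.8 and 3.42 to 15.97 for T and natural killer cells. They were 102.9 to 343.3 and 0.53 to 3.70 for plasma cells, and 13.6 to 38.8 and 1.06 to 4.36 for B lymphocytes. Monocyte and macrophage sums overlapped (370.7 to 738.2 and 55.25 to 526.2). In these bulk samples, fewer cells of a type and less RNA per cell cannot be told apart.

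The motif bound by the network, CACGTG, which reads the same on both strands, was looked for in RefSeq promoters (250 bases before to 50 after a start, build GRCm38.p6). It was found in 7.15% of 32851 promoters and in 8.09% of 27025 genes. Promoters of all members but Myc were in the table, and those of 4 (Max, Mxd4, Mnt and Mlx) held the motif. Those of Mycn, Mxd1, Mxd3, Mxi1 and Mga had no CACGTG in this window, so that members with and without the motif were both among those that fell. The surroundings of the 4 motifs are shown because they are the letters that the proteins of the network bind. Capitals mark the motif, the strand is that of the gene, and distances run from the first base of the motif.
Max, chr12:76962219-76962291, minus strand, motif from 3 bases before the start and across it: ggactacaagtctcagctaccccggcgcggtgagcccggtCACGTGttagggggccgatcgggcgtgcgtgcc
Mxd4, chr5:34187884-34187960, minus strand, motif 219 bases before the start: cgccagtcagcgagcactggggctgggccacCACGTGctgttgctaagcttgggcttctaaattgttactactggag
Mnt, chr11:74830761-74830846, plus strand, motif 123 bases before the start: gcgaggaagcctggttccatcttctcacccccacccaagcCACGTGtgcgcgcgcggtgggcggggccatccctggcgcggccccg
Mlx, chr11:101087210-101087295, plus strand, motif 40 bases before the start: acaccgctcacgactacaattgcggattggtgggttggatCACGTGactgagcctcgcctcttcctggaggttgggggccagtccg
A match is a description of these letters, and binding was not measured here.

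The first question was how the network differed between MLL-AF9 cells and WT HSPCs. Of the 10 members, 9 changed (edgeR quasi-likelihood test, Benjamini-Hochberg adjusted p under 0.05). Mycn, Mxd3, Mxd4, Myc, Mlx, Mnt and Max were lower and Mxi1 and Mga higher, and Mxd1 did not pass the test. Most genes changed in this comparison: 62.2% of 17077 genes tested passed, 32.8% with a higher and 29.4% with a lower level. The levels of 8 members did not overlap between the groups, against 50.5% of all genes tested. The median log2 fold change of the 10 members was -0.71, and that of all genes tested was 0.14. The same 9 members changed, in the same directions, between MLL-AF9 cells and Mir139KO HSPCs, where 69.3% of 16953 genes passed (37.3% higher, 31.9% lower) and 8 members, against 58% of all genes, did not overlap. Both comparisons share the 6 MLL-AF9 samples, so their values are given side by side and are not independent.

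**Figure D1:**
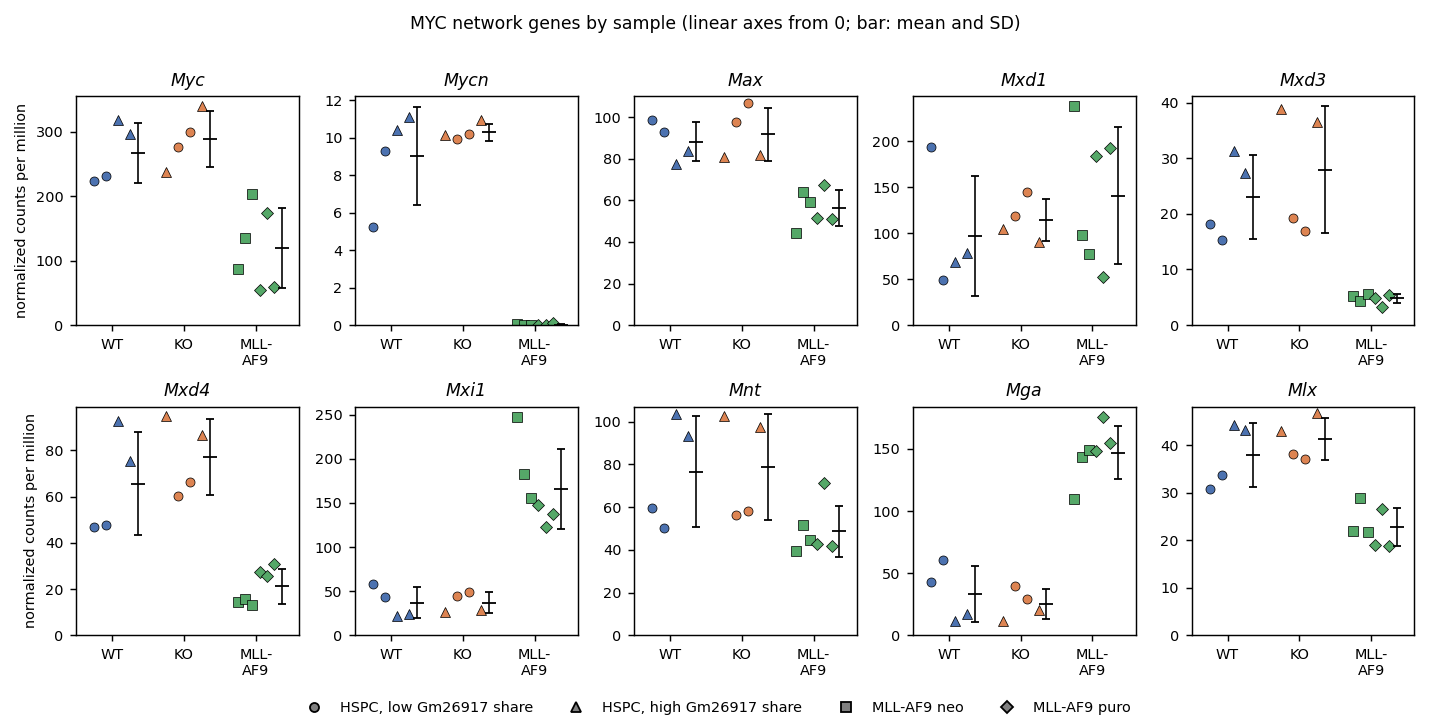
Normalized CPM (vertical axes, linear from 0) of the 10 network genes in 4 WT HSPC, 4 Mir139KO HSPC and 6 MLL-AF9 samples, with the mean and SD of each group as a bar. Circles are HSPC samples with a low and triangles with a high Gm26917 share, squares are neo and diamonds puro cultures. Mycn was near 0 in every MLL-AF9 culture, while Mxi1 (122.9 to 247.9) and Mga (110.0 to 175.8) lay above every HSPC sample.

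Among the activators, Mycn, the relative of Myc known for its role in embryonic tissues and stem cells, showed the largest difference of the members. Mycn was at 5.26, 9.29, 10.4 and 11.1 normalized CPM in WT replicates 1 to 4 and at 10.1, 9.92, 10.2 and 10.96 in Mir139KO replicates 1 to 4, from 235 to 418 counts per sample. In MLL-AF9 replicates 1 to 6 it had 3, 0, 0, 1, 0 and 5 counts. No MLL-AF9 culture came near any HSPC sample. Pooled over samples, the level was 296 times higher in WT HSPCs (1265 counts) than in MLL-AF9 cultures (9 counts), with an exact 95% counting interval of 155 to 648, and 355 times higher in Mir139KO HSPCs (187 to 779). The interval covers counting error only. The fitted log2 fold changes were -8.16 (SE 0.79, adjusted p = 9.41e-06) against WT and -8.36 (SE 0.72, adjusted p = 1.93e-06) against Mir139KO HSPCs (edgeR), and depend on the prior count. Of the 9 counts in cultures 5 came from replicate 6, and without it the fitted values were -8.93 and -9.12.

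By the root mean square difference of centred log2 levels over the 14 samples, the genes most like Mycn among 8542 genes were Ces2g (0.38), Epor (0.46) and Klf1 (0.53). Epor, the erythropoietin receptor, was at 42.5 to 117 normalized CPM in HSPCs and 0.36 to 0.90 in MLL-AF9 cultures. Klf1, an erythroid transcription factor, was at 112 to 348 in HSPCs and 0.54 to 1.78 in MLL-AF9 cultures. Ces2g was at 150 to 309 in HSPCs and 1.41 to 2.55 in MLL-AF9 cultures. All of these genes were picked for their likeness to Mycn over these samples. That they differ between the same samples therefore follows from the choice. Marker sums of several other cell types were also lower in every culture than in every HSPC sample. The part of erythroid or of these other cells in the Mycn difference was not tested.

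Myc itself was at 224, 231, 318 and 297 normalized CPM in WT replicates 1 to 4 and at 238, 276, 300.1 and 341 in Mir139KO replicates 1 to 4. In MLL-AF9 cultures 1 to 6 it was at 87.2, 135, 204, 54.0, 173 and 59.8. Every MLL-AF9 culture lay below every HSPC sample, but the cultures spread widely: the coefficient of variation was 52.1% (n = 6), against 17.6% in WT (n = 4) and 14.9% in Mir139KO HSPCs (n = 4). The log2 fold change was -1.18 against WT (SE 0.37, edgeR adjusted p = 0.0153) and -1.30 against Mir139KO HSPCs (SE 0.36, adjusted p = 0.00636).

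The size of the Myc difference depended on the scaling. After a correction for the GC content of transcripts, it was -0.47 (edgeR adjusted p = 0.299) against WT and -0.56 (adjusted p = 0.224) against Mir139KO HSPCs. With total counts in place of TMM factors, which moved the median of all genes from 0.14 to 0.69 (log2) against WT, it was -0.57, and against Mir139KO HSPCs, where that median moved from 0.16 to 0.84, it was -0.62. Neither passed the test. The direction stayed the same in all 23 alternatives of each comparison.

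The genes most like Myc over the 14 samples were Pask (root mean square difference 0.16 on the log2 scale), Ppp1r8 (0.17) and Ddx27 (0.19). Ddx27, an RNA helicase of ribosome assembly, was at 88.8 to 136 normalized CPM in HSPCs and at 29.5, 65.8, 61.5, 24.96, 62.4 and 23.7 in MLL-AF9 replicates 1 to 6. Replicates 1, 4 and 6 were the lowest, as for Myc, which follows from the choice of Ddx27 for its likeness to Myc over these samples.

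Max, the obligate partner of MYC and of the MXD proteins, was at 77.5 to 98.6 normalized CPM in WT, 80.97 to 106.9 in Mir139KO and 44.5 to 67.3 in MLL-AF9 samples. The groups did not overlap. The log2 fold change was -0.66 against WT (SE 0.21, edgeR adjusted p = 0.017) and -0.72 against Mir139KO HSPCs (SE 0.19, adjusted p = 0.00482). Against WT it fell to -0.36 after GC correction (adjusted p = 0.0925), and with total counts it was -0.11. Relative to Max, Myc was lower on average in MLL-AF9 cultures. The log2 ratio of their length-scaled levels was 1.995 ± 0.41 over the WT samples (SD, n = 4) and 2.06 ± 0.27 over the Mir139KO samples (SD, n = 4). In MLL-AF9 cultures it was 1.32 ± 0.66 (SD, n = 6), with overlap between the groups. Replicates 4 and 6 were lowest (0.475 and 0.638). The other cultures were at 1.377 to 2.186, against 1.588 to 2.465 in the HSPC samples.

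The repressors did not move as one. Mxd3, an MXD protein known from dividing progenitors in S phase, was at 15.4 to 31.2 normalized CPM in WT, 16.99 to 38.95 in Mir139KO and 3.34 to 5.65 in MLL-AF9 samples. Every culture was below every HSPC sample. It fell by 2.27 on the log2 scale against WT (SE 0.29, edgeR adjusted p = 6.19e-05) and by 2.55 against Mir139KO HSPCs (SE 0.29, adjusted p = 1.36e-05). After GC correction the log2 fold changes were -1.40 and -1.57. Of the 2369 exonic bases of Mxd3, 105 overlap Prelid1 on the opposite strand, and the strand setting of the counting is not stated.

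Mxd4, an MXD protein of resting and differentiating cells, was at 46.7, 47.7, 92.6 and 75.4 normalized CPM in WT replicates 1 to 4 and at 94.9, 60.4, 66.4 and 86.6 in Mir139KO replicates 1 to 4. In MLL-AF9 cultures 1 to 6 it was at 14.4, 15.9, 13.1, 27.4, 25.5 and 30.8. The 3 puro cultures lay above the 3 neo cultures and below all HSPC samples. The log2 fold change was -1.64 against WT (SE 0.32, edgeR adjusted p = 0.00103) and -1.88 against Mir139KO HSPCs (SE 0.28, adjusted p = 9.89e-05). Mxd4 shares 514 of its 8483 exonic bases with an antisense gene, and reads from both cannot be told apart without strand.

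Mxi1, a MAX partner that recruits the SIN3 corepressor and opposes MYC, rose. It was at 58.7, 43.4, 21.4 and 24.3 normalized CPM in WT replicates 1 to 4 and at 26.2, 44.95, 49.3 and 28.1 in Mir139KO replicates 1 to 4. In MLL-AF9 cultures 1 to 6 it was at 248, 183, 156, 148, 123 and 138. The lowest culture was above the highest HSPC sample by more than a factor of 2. The log2 fold change was 2.16 against WT (SE 0.36, edgeR adjusted p = 0.000362) and 2.14 against Mir139KO HSPCs (SE 0.29, adjusted p = 4.13e-05), and 1.91 and 1.81 after GC correction. The difference from WT was 1.64 with low-share and 2.76 with high-share HSPC samples alone. Mxi1 shares 194 of 6823 exonic bases with Gm10197 on the opposite strand.

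Mxd1, the MXD protein classically induced as myeloid cells mature, was the 1 member that did not pass in either comparison with HSPCs in the main test. It was at 194, 49.0, 69.0 and 78.1 normalized CPM in WT replicates 1 to 4 and at 105, 119, 145 and 90.9 in Mir139KO replicates 1 to 4. In MLL-AF9 cultures 1 to 6 it was at 239, 98.5, 77.2, 184, 52.4 and 193. The groups overlapped. The log2 fold change was 0.53 (SE 0.50, edgeR adjusted p = 0.37) against WT and 0.28 (SE 0.39, adjusted p = 0.535) against Mir139KO HSPCs, which allows a change of -0.465 to 1.515 and of -0.50 to 1.06 (2 SE each way). Without WT HSPC replicate 1 the value against WT was 1.104 (adjusted p = 0.0684), and with GC correction and the replicate block it was 1.08 and passed (adjusted p = 0.0146). WT HSPC replicate 1, with the highest Mxd1 of the WT samples, also had the highest sum of neutrophil markers among them (9423 normalized CPM), and replicate 2, with the lowest, had the lowest (370.5). The Mir139KO samples did not follow that order: replicate 1 had the highest sum (12570) with Mxd1 at 105, and replicate 3, with the highest Mxd1, had 6529. The part of neutrophils in these values was not tested.

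Mnt, a widely expressed MAX partner that limits MYC activity, was at 50.2 to 104 normalized CPM in WT, 56.3 to 102 in Mir139KO and 39.7 to 71.3 in MLL-AF9 samples. The groups overlapped, MLL-AF9 replicate 5 being the highest culture. The log2 fold changes were -0.67 (SE 0.27, edgeR adjusted p = 0.0491) and -0.71 (SE 0.25, adjusted p = 0.0228). The direction was not stable: after GC correction the values were 0.31 and 0.37, and with total counts 0.01 and 0.07. Without 7 of the 10 samples in turn, the difference from WT no longer passed (-0.68 to -0.51 in those fits). Mnt has the highest transcript GC content of the members.

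Mga, a MAX partner that carries a second DNA-binding domain and belongs to the polycomb complex PRC1.6, rose. It was at 43.2, 60.7, 11.8 and 17.4 normalized CPM in WT replicates 1 to 4 and at 11.9, 39.7, 29.3 and 20.5 in Mir139KO replicates 1 to 4. In MLL-AF9 cultures 1 to 6 it was at 110.0, 143, 149, 148, 176 and 155. No HSPC sample reached the lowest culture. The log2 fold change was 2.13 against WT (SE 0.43, edgeR adjusted p = 0.00116) and 2.52 against Mir139KO HSPCs (SE 0.32, adjusted p = 3.05e-05). Mga has the lowest transcript GC content of the members, and after GC correction the changes were 1.12 (adjusted p = 0.00147) and 1.26 (adjusted p = 0.000234). With low-share HSPC samples alone the difference from WT was 1.45, and with high-share samples alone 3.22.

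Mlx, the partner of the glucose-sensing factors MondoA (gene Mlxip) and ChREBP (gene Mlxipl), was at 30.7 to 44.1 normalized CPM in WT, 37.0 to 46.7 in Mir139KO and 18.8 to 28.8 in MLL-AF9 samples. The groups did not overlap. It fell by 0.75 against WT (log2, SE 0.23, edgeR adjusted p = 0.0135) and by 0.87 against Mir139KO HSPCs (SE 0.20, adjusted p = 0.0017). With total counts the values were -0.11 and -0.15. After GC correction they were -0.30 (adjusted p = 0.167) and -0.415 (adjusted p = 0.0458), and with low-share HSPC samples alone the difference from WT did not pass (-0.56, adjusted p = 0.0559). The log2 ratio of Mlx to Max was -0.38 ± 0.41 over the WT samples (SD, n = 4), -0.30 ± 0.35 over the Mir139KO samples (SD, n = 4) and -0.46 ± 0.18 in MLL-AF9 samples (SD, n = 6). Mlx shares 385 of 1999 exonic bases with Psmc3ip on the opposite strand.

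**Figure D2:**
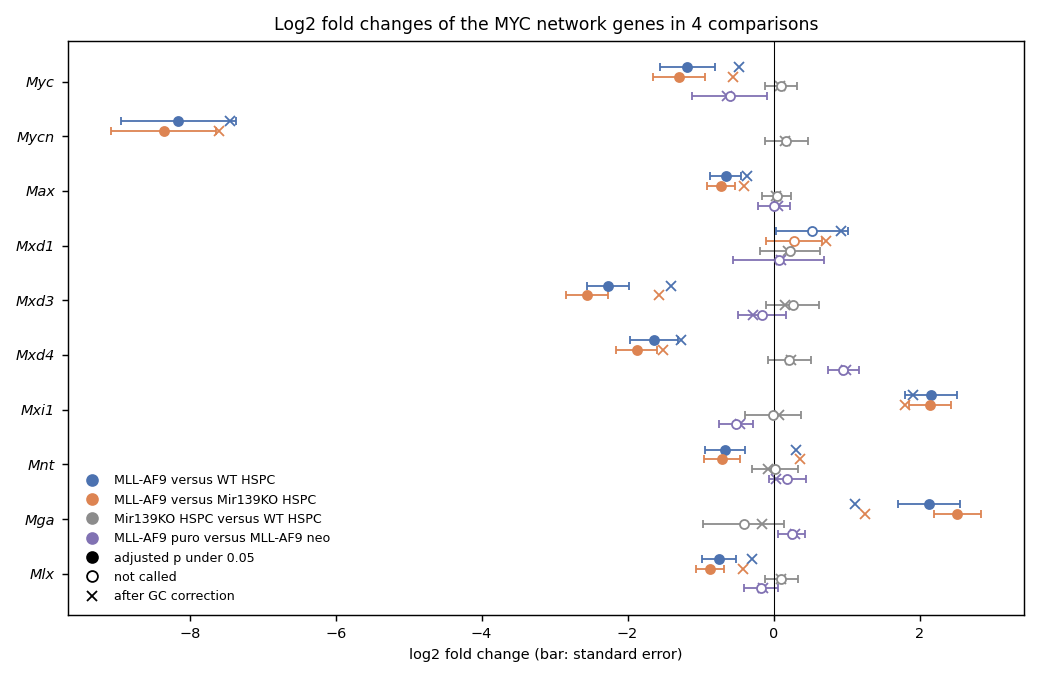
Log2 fold changes (horizontal axis) with standard errors for the 10 members in 4 comparisons, with filled points for an adjusted p under 0.05 and open points for none. Crosses are values after GC correction. In both comparisons of MLL-AF9 with HSPCs they are nearer to 0 than the main values for all members but Mxd1 and Mnt. For Mxd1 they are farther from 0, and for Mnt on the other side of 0. The differences of Mir139KO from WT HSPCs and of puro from neo cultures are all open points.

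The make-up of the network was compared within each sample, where library scaling cancels. A dependence on GC content does not cancel, and no GC correction was made here. Among HSPC samples, the log2 ratio of Mga to Myc was -5.11 ± 0.61 in low-share and -6.80 ± 0.32 in high-share samples (SD, n = 4 each). Levels were divided by the exonic length of each gene and given as a percentage of the sum over the 10 members. Myc made up 49.0 ± 4.1% of this sum over the WT samples (SD, n = 4) and 48.9 ± 4.1% over the Mir139KO samples (SD, n = 4), and stood above every other member in all 8 samples. In MLL-AF9 cultures it was 30.1 ± 12.7% (SD, n = 6). Mxi1 made up 2.82 ± 1.52% in WT, 2.53 ± 0.85% in Mir139KO and 17.5 ± 4.5% in MLL-AF9 samples, with no overlap between HSPCs and cultures.

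On this length-scaled level, the order in WT HSPCs was Myc, Max, Mlx, Mnt, Mxd1, Mxd3, Mxd4, Mxi1, Mycn and Mga, and only the step from Myc to Max was larger than the spread of the samples. In MLL-AF9 cultures it was Myc, Mxi1, Mxd1, Max, Mlx, Mnt, Mga, Mxd4, Mxd3 and Mycn. There the first 7 overlapped with their neighbours, and the steps from Mga to Mxd4 and from Mxd3 to Mycn were the 2 at which all samples of a gene lay above all of the next. Mxi1 (place 8 to 2), Mga (10 to 7) and Mxd1 (5 to 3) thus moved up in order. Myc stayed first, and Max, Mlx, Mnt, Mxd3, Mxd4 and Mycn moved down.

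The summed level of the repressors Mxd1, Mxd3, Mxd4, Mxi1, Mnt and Mga relative to that of Myc and Mycn was 0.56 ± 0.14 over the WT samples (SD, n = 4) and 0.57 ± 0.13 over the Mir139KO samples (SD, n = 4). In MLL-AF9 replicates 1 to 6 it was 2.79, 1.30, 0.76, 3.62, 0.89 and 3.29. Replicate 3, the lowest culture, lay just below WT replicate 1 (0.77), and the other 5 cultures lay above all HSPC samples. Both sides of the ratio differed between cultures. In replicates 1, 4 and 6 Mxd1 made up 22.5 to 23.3% of the network and Myc 17.2 to 22.1%, against 4.86 to 9.48% and 33.9 to 47.1% in replicates 2, 3 and 5.

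**Figure D3:**
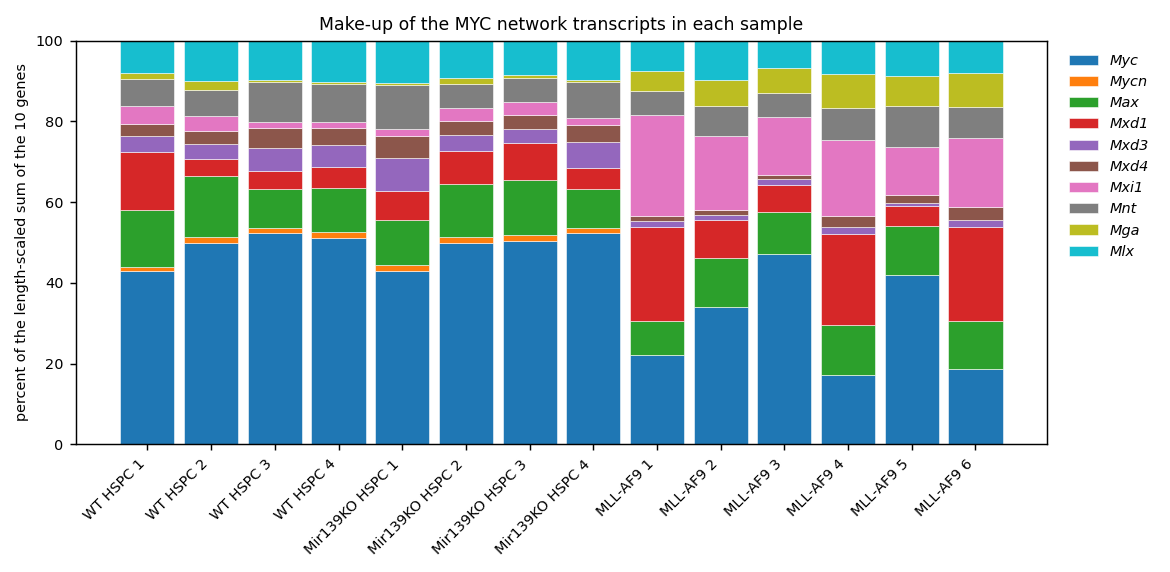
Percentage (vertical axis) of the length-scaled sum of the 10 members in each of the 14 samples (one stacked bar a sample, colored by gene). Myc takes 43.0 to 52.3% of every HSPC bar and 17.2 to 47.1% of the MLL-AF9 bars, in which Mxi1 takes 11.8 to 25.04%.

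The MLL-AF9 cultures also differed among themselves, within each vector. The order of Myc from low to high was replicates 4, 6, 1, 2, 5 and 3, and the order of Mxd1 from high to low was replicates 1, 6, 4, 2, 3 and 5. The 3 cultures with the lowest Myc were those with the highest Mxd1. They came from both vectors: replicate 1 is neo, and replicates 4 and 6, the most alike pair (r = 0.9946), are puro. Whether replicates 4 and 6 were independent is not stated in the labels. Over all genes the cultures did not divide in this way: replicate 1 was closest to replicate 3 (r = 0.9589) and less close to replicates 6 (0.9453) and 4 (0.9427).

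Genes that MYC activates differed between the same cultures. The sum over 26 ribosome biogenesis genes was 1165, 4213, 4265, 909, 3205 and 942 normalized CPM in MLL-AF9 replicates 1 to 6. The HSPC samples ranged from 2766 to 4540. Ncl, which codes for nucleolin, made up the largest single part of the sums of replicates 2, 3 and 5, at 1217, 1317 and 639 normalized CPM, against 50.3 to 472 in HSPCs. Gene by gene, 15 of the 26 lay below every HSPC sample in replicates 2 and 3, 17 in replicate 5, and 21 in each of replicates 1, 4 and 6, while 8, 7 and 6 lay above every HSPC sample in replicates 2, 3 and 5 and 0 in the others. The sum over 15 proliferation genes was 1194, 3231, 2803, 626, 2891 and 657 in the same samples, against 3848 to 4955 in HSPCs. Cdkn1a, the gene of the cell cycle inhibitor p21 that MYC represses, was at 275, 147, 102, 158, 73.9 and 149.7 normalized CPM in the cultures and at 14.4 to 29.8 in HSPCs. Its lowest cultures were replicates 5 and 3, the 2 with the highest Myc. The neutrophil markers summed to 4035, 3127, 1776, 1927, 270.1 and 1935 in the cultures and followed Mxd1 only in part, replicate 5 being lowest in both.

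**Figure D4:**
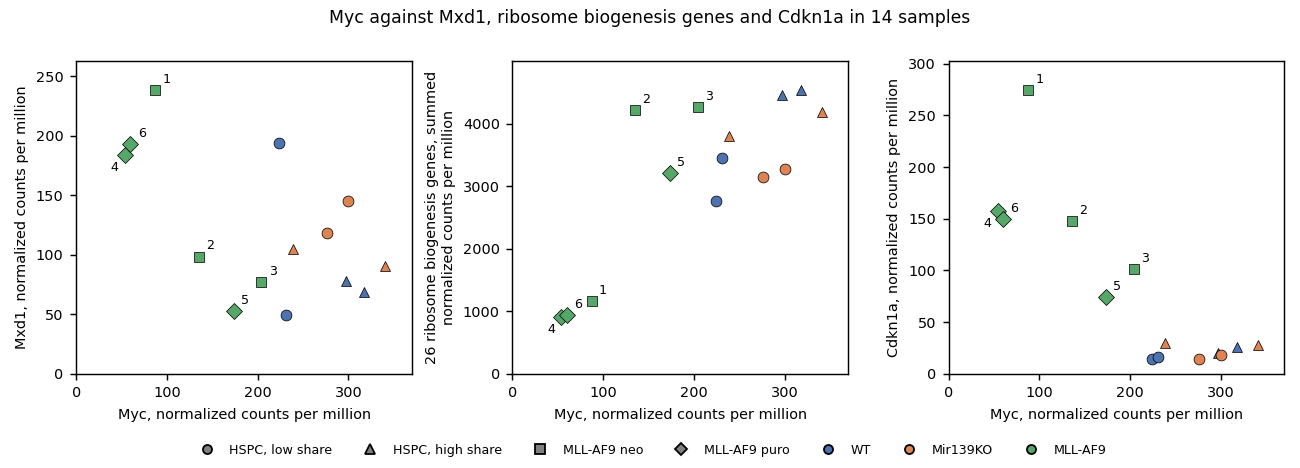
Myc (horizontal axes, normalized CPM) against Mxd1, the sum of 26 ribosome biogenesis genes and Cdkn1a (vertical axes, normalized CPM) in 14 samples, with MLL-AF9 replicates numbered. Replicates 1, 4 and 6 combine the lowest Myc with the highest Mxd1 and ribosome biogenesis sums of 909 to 1165, and all cultures have more Cdkn1a than the HSPC samples.

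The question whether the vector mattered was addressed by comparing puro with neo cultures, 3 against 3. Of 9 members tested, 0 passed, where 0.873% of 16503 genes passed. An unadjusted p under 0.05 was reached by 13.7% of all genes and, among the members, by Mxd4. Mxd4 was higher in puro cultures by 0.95 on the log2 scale (SE 0.21, edgeR adjusted p = 0.107), with no overlap between the vectors. It passed with the DESeq2 Wald test (0.94) and without MLL-AF9 replicate 5 (1.04). Mxi1 was at 156 to 248 normalized CPM in neo and 123 to 148 in puro cultures, again without overlap, and its log2 fold change was -0.52 (SE 0.23, adjusted p = 0.406). Groups did not overlap for 19.9% of all genes. For Myc the difference was -0.60 with an SE of 0.51, which allows -1.63 to 0.43 (2 SE each way), and Mycn had too few counts to be tested.

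The loss of Mir139 was examined by comparing Mir139KO with WT HSPCs, 4 against 4. Of the 10 members 0 passed the edgeR test, as did 0 of 15056 genes overall (0%), and DESeq2 called 0 as well. At an unadjusted p under 0.05 there were 86 genes (0.571%), none of them a member. The largest differences were -0.41 for Mga (SE 0.55) and 0.26 for Mxd3 (SE 0.37), and all members overlapped between the genotypes (0.491% of all genes did not). The intervals (2 SE each way) were -0.35 to 0.54 for Myc, -0.40 to 0.76 for Mycn and -0.36 to 0.44 for Max. For Mga the interval was wider, -1.51 to 0.695. With the Gm26917 share class as covariate the standard errors were smaller (0.14 in place of 0.22 for Myc, 0.086 in place of 0.20 for Max and 0.25 in place of 0.55 for Mga), and again 0 members passed. Mxd4, higher by 0.25 (SE 0.11), then reached an unadjusted edgeR p of 0.0468, with an adjusted p of 0.995.

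Between HSPC samples with a low and a high Gm26917 share, 7 of the 10 members did not overlap, which is near the 65.2% of 15054 genes that did not. Mga was at 29.3 to 60.7 normalized CPM in low-share and 11.8 to 20.5 in high-share samples, and Mxi1 at 43.4 to 58.7 and 21.4 to 28.1. Max was also higher in low-share samples (92.8 to 107 against 77.5 to 83.7). Mnt went the other way, at 50.2 to 59.4 in low-share and 93.2 to 104 in high-share samples, as did Mxd3 (15.4 to 19.3 against 27.4 to 38.95), Mxd4 (46.7 to 66.4 against 75.4 to 94.9) and Mlx (30.7 to 38.2 against 43.1 to 46.7). Myc (224 to 300.1 against 238 to 341), Mycn and Mxd1 overlapped.

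Network relatives outside the 10 members were described next. Mycl, the third MYC family activator, was at 3.41 to 8.65 normalized CPM in HSPCs and had 0 counts in all 6 MLL-AF9 cultures. Against a floor of 3 counts over the group it was at least 553-fold higher in WT and at least 670-fold higher in Mir139KO HSPCs. Mycn and Mycl were thus both near or at 0 in the cultures. Mlxipl was at 0.0695 to 0.34 normalized CPM in HSPCs and rose to 1.17 to 1.99 in MLL-AF9 cultures (log2 fold change against WT 3.09, SE 0.49, edgeR adjusted p = 0.000237), while Mlxip, at 89.4 to 157 in all samples, gave -0.14 (SE 0.23, adjusted p = 0.618). Bmyc was listed at 0 in every sample, as were Fbxw7, which targets MYC for degradation, and the MondoA target Txnip, so nothing can be read from these 3. Arrdc4, the other MondoA target in the list, gave 0.01 (SE 0.40, adjusted p = 0.982).

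Of 10 MYC coactivators, 7 were lower and 0 higher in MLL-AF9 cells than in WT HSPCs (edgeR adjusted p under 0.05, median log2 fold change -1.11, all genes 0.14). Over all genes tested, 29.4% were lower and 32.8% higher. Kat2a, a histone acetyltransferase (-2.23, SE 0.35), and Ruvbl2, a helicase subunit of chromatin remodelers (-1.67, SE 0.45), fell most. Against Mir139KO HSPCs 9 were lower, where 31.9% of all genes were. After GC correction 2 of the 10 were lower against WT, with a median of -0.51, and 25.2% of all genes were lower. Of 7 genes of MYC protein turnover tested, 3 were higher and 2 lower, against 32.8% and 29.4% of all genes. Pim1, a kinase that stabilizes MYC (1.98, SE 0.28), and Gsk3b, a kinase that marks MYC for degradation (1.68, SE 0.43), rose, and Aurka (-1.31, SE 0.47), a kinase that stabilizes MYCN, fell.

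The corepressors that MXD proteins, MXI1 and MNT use were lower or unmoved for the most part, with 4 of 8 lower and 1 higher against WT HSPCs (median -0.60). Among all genes 29.4% were lower and 32.8% higher. Sap30 (-1.90, SE 0.36) and Suds3 (-1.43, SE 0.27), subunits of the SIN3 complex, fell, and Ncor1, a nuclear receptor corepressor, rose (1.61, SE 0.45). Sin3a gave 0.20 (SE 0.29, edgeR adjusted p = 0.562). Of 10 subunits of PRC1.6, the complex of MGA, 3 were higher and 3 lower (median 0.34), which is near the 32.8% and 29.4% of all genes. Yaf2 (2.42, SE 0.46) and Rybp (2.22, SE 0.52), related subunits of polycomb complexes, rose, and Ring1 (-1.51, SE 0.31) and L3mbtl2 (-1.13, SE 0.36) fell. Pcgf6, the subunit that defines the complex, gave 0.34 (SE 0.35, adjusted p = 0.404).

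Of 7 germline genes that MGA is known to hold silent, 5 have the CACGTG motif in the promoter (Ddx4, Mael, Slc25a31, Stk31 and Taf7l), against 8.09% of all genes. In MLL-AF9 cells and WT HSPCs only 2 of the 7 had enough counts to be tested, and 0 passed. The untested genes had few counts. Slc25a31 had 0 to 2 counts in the HSPC samples and 3 to 28 in the cultures. Stk31 had 1 to 6 and 4 to 24, and Taf7l 0 and 0 to 10. Dazl (1 to 5 and 0 to 6) and Mael (0 to 2 in both) overlapped. Ddx4, a germ cell RNA helicase, was at 0.36 to 1.18 normalized CPM in all 14 samples, with a log2 fold change of -0.75 (SE 0.40, edgeR adjusted p = 0.117).

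Of 26 ribosome biogenesis genes that MYC activates, 16 were lower and 0 higher against WT HSPCs (median log2 fold change -1.61, all genes 0.14). The shares of all genes were 29.4% and 32.8%. Fbl, the methyltransferase of nucleolar RNA, was at 127 to 325 normalized CPM in HSPCs and 18.04 to 61.4 in cultures (-2.63 against WT, SE 0.46), and Grwd1 at 37.8 to 116 and 3.68 to 24.8 (-2.63, SE 0.61). The genes did not all go one way: Ncl gave 1.39 (SE 0.76, edgeR adjusted p = 0.13) against WT and rose by 2.02 (SE 0.67, adjusted p = 0.0171) against Mir139KO HSPCs. There 4 of the 26 were higher and 16 lower, against 37.3% and 31.9% of all genes. With low-share HSPC samples alone 2 of the 26 were lower against WT (median -1.01), where 20.8% of all genes were. After GC correction 7 were lower (median -0.86), against 25.2% of all genes. The count therefore depends on which HSPC libraries are used.

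Of 20 metabolism and growth genes tested, 8 were lower and 0 higher against WT (median -1.01), against 29.4% and 32.8% of all genes. Cad, the first enzyme of pyrimidine synthesis, fell from 344 to 998 normalized CPM in HSPCs to 31.1 to 168 in cultures (log2 fold change -2.99, SE 0.56, edgeR adjusted p = 0.000726). Impdh2, of guanine nucleotide synthesis, fell by 2.48 (SE 0.46). Low-share HSPC samples alone gave 3 lower (20.8% of all genes). GC correction gave 8 lower and 2 higher (25.2% and 32.6% of all genes). Of 6 genes that MYC represses, 4 were higher and 1 lower (median 2.496), against 32.8% and 29.4% of all genes. Cdkn1a (2.98, SE 0.40) and Ndrg2 (2.94, SE 0.36) rose most of those above the level set for naming, and Ndrg1 fell (-1.58, SE 0.37). The 4 were higher after GC correction, with total counts and with either kind of HSPC sample alone. Of 15 proliferation genes 7 were lower and 2 higher, against 29.4% and 32.8% of all genes. Mcm7 (-2.89, SE 0.55) and Mcm5 (-2.82, SE 0.61), subunits of the replication helicase, fell, and Bub1 (1.71, SE 0.70, edgeR adjusted p = 0.0493) and Mki67 (1.29, SE 0.52, adjusted p = 0.0446) rose. Not every culture shared that rise: MLL-AF9 replicates 4 and 6 lay below the low-share WT replicates 1 and 2. Their counts were 8761 and 9777 against 14020 and 11432 for Mki67, and 647 and 728 against 858 and 1186 for Bub1.

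**Figure D5:**
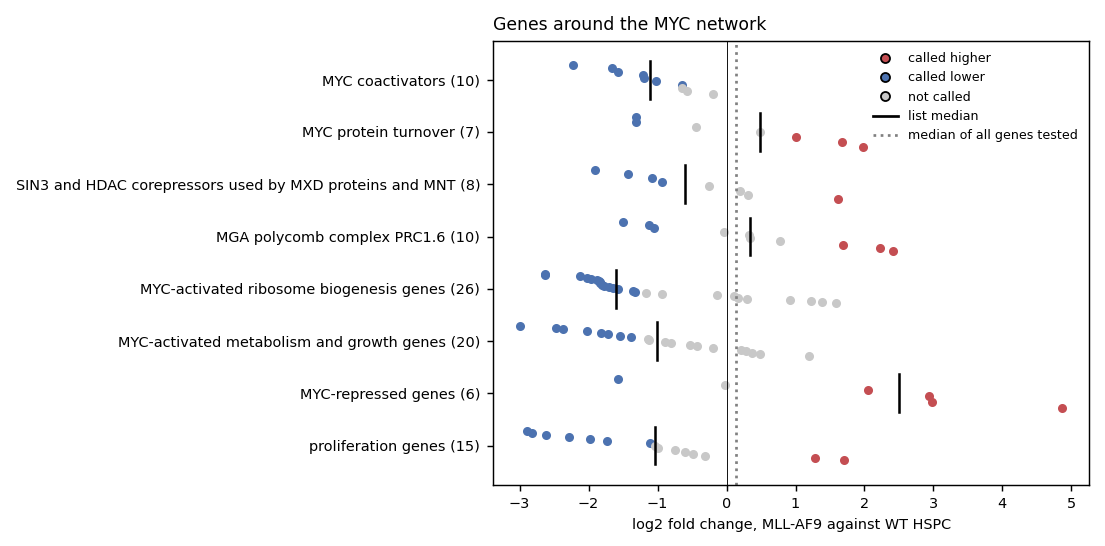
Log2 fold changes (horizontal axis) between MLL-AF9 cells and WT HSPCs for genes of 8 lists around the network, 1 point a gene, colored by whether it passed the test and in which direction, with the number tested in brackets. Black bars are list medians, from -1.61 for ribosome biogenesis genes to 2.496 for MYC-repressed genes, and the dotted line is the median of all genes tested, 0.14.

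In the comparisons of Mir139KO with WT HSPCs and of puro with neo cultures, 0 genes of these lists passed the test. Markers of the cell states were checked beside them. In MLL-AF9 cells all 4 genes of the MLL fusion program were higher than in WT HSPCs (median log2 fold change 4.80), and of 8 stem and progenitor markers 6 were lower and 0 higher (median -3.85). Over all genes tested, 32.8% were higher and 29.4% lower.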

How the data were processed

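RNA of 14 samples was sequenced after depletion of ribosomal RNA. Per the labels and the study's methods, the authors mapped reads to GRCm38 with STAR 2.5.3e and counted them per gene with featureCounts 1.6.0 (submitters' processing notes also name FastQC 0.11.8, MultiQC and DESeq2 1.22.2). The deposited values are raw counts per gene with no normalization. The strand setting is not given in the sources used here. Counts of samples from another series, 10 columns, were left out. The table was matched to GENCODE M21 (52403 of 52550 genes, all 10 members), from which coordinates, exonic lengths and GC content were taken, whereas the study used another GENCODE release.

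Each comparison used its 2 groups in edgeR 4.0.16 (limma 3.58.1, R 4.3.3): TMM factors, genes with at least 10 counts in as many samples as the smaller group, robust quasi-likelihood test, Benjamini-Hochberg adjustment over all genes tested, threshold 0.05. Standard errors were taken as log2 fold change over the root of F. Normalized CPM used TMM over all 14 samples, and log2 levels a prior count of 2. A depth of 35016668 to 45877994 counts puts 3 counts at 0.0544 to 0.129 normalized CPM. Genes of a list were named by size of change among those called and with mean log2 CPM not under 3, at most 2 in each direction, and in lists of up to 4 genes all were named. A gene of the turnover list that this rule names is not reported here. A gene named beside these was chosen after its values were seen. Members and lists were chosen with earlier results of these data known, some lists having been reused. On simulated data each of the 4 comparisons recovered 200 of 200 genes changed by 2 on the log2 scale.

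Alternatives were RLE factors, total counts, the DESeq2 1.42.0 Wald test, other filters, a replicate block, a GC correction (spline with 5 degrees of freedom per sample, as offset) with and without the block, HSPC samples split at a Gm26917 share of 25% or that class as covariate, either vector alone, replicates 4 and 6 summed, and each sample left out.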

Additional observations from a re-analysis of the deposited data

How the results depend on the processing

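Mycn, Mxd3, Mxd4, Mxi1 and Mga kept their direction and their side of the threshold between MLL-AF9 cells and both HSPC groups in all 23 alternatives of each comparison. Of the 9 members called against WT HSPCs, 5 were called with total counts, 5 with GC correction and 5 with neo cultures only, and against Mir139KO HSPCs 5 with total counts and 5 with GC correction and replicate block. Fits without 1 sample each gave 8 to 9 called against WT and 9 against Mir139KO HSPCs. Mnt reversed against WT to 0.012 with total counts, 0.31 with GC correction and 0.19 with GC correction and block, and against Mir139KO HSPCs to 0.072, 0.37 and 0.23. The cause was not tested.

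Whether sample numbers pair the samples could not be settled. Correlations of same-numbered deviations ran from -0.57 to 0.63 between HSPC genotypes and from -0.31 to 0.44 between vectors, and not every sample matched its own number best. Between genotypes they were positive for numbers 2 and 4, whose samples share a Gm26917 class, and negative for numbers 1 and 3, whose samples do not. The share class would thus hide a pairing. With the replicate block 6 members were called against WT, where 54.5% of all genes were. Max (-0.70), Mnt (-0.73) and Mlx (-0.74) then no longer passed. Mxd1 passed against WT with GC correction and block (1.08).

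Between the HSPC genotypes no member passed in any alternative, and several values near 0 changed sign. With high-share samples only, Myc gave -0.13, Mycn -0.068, Max -0.024, Mnt -0.016, Mxi1 0.21 and Mga 0.11, and with total counts Max gave -0.054 and Mnt -0.059. Mxi1 gave 0.017 with RLE factors and with DESeq2, 0.002 with no filter, 0.066 with the block, 0.079 with GC correction, 0.11 with both and 0.052 with the share class as covariate, and Mnt gave -0.078 with GC correction and -0.072 with both. Without 1 sample each, ranges were -0.028 to 0.29 for Mycn, -0.045 to 0.10 for Max, -0.005 to 0.78 for Mxd1, -0.19 to 0.30 for Mxi1, -0.15 to 0.21 for Mnt, -0.71 to 0.047 for Mga and -0.003 to 0.19 for Mlx. Of all genes, 1 was called with low-share and 1 with high-share samples only.

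Between vectors, 144 genes were called, 1326 with DESeq2, 221 with no filter, 249 with GC correction and block, 5 with MLL-AF9 replicates 4 and 6 summed, and 0 to 990 without 1 culture each (0 without replicate 2 or 3, 990 without replicate 5). Members called were 1 with DESeq2 (8.03% of all genes) and 0 to 1 without 1 culture each (0 to 5.75% of all genes). Max gave -0.004 with RLE factors and with DESeq2, and -0.11 to 0.11 without 1 culture each. Mxd1 gave -0.007 with the block, -0.18 with replicates 4 and 6 summed and -0.22 to 0.75 without 1 culture each, Mxd3 -0.31 to 0.039 and Mnt -0.069 to 0.31. With the length of the longest transcript, Myc made up 44.3% of the network in WT HSPCs. Of the mean shares of a member in a group, 12 moved clearly with that length and 18 did not. The make-up and order of the members given above therefore hold for the exonic length only. Below 3 counts, as for Mycn in 4 of 6 cultures, a level is under the floor.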
